A study of Rattus norvegicus with 3 samples.

Results

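The genes described here make, buffer and break down the polyamines putrescine, spermidine and spermine. The list held 8 genes: Odc1, Amd1, Srm and Sms for synthesis, Oaz1, Oaz2 and Azin1 for the control of ornithine decarboxylase, and Sat1 for turnover. They were found by their names on the array, with Sat1 written there as Sat. Probes were present for 7 of the 8 genes, 10 probes in all among 41012, and all 10 were well above background in both RNAs on every array. Oaz2 had no probe under its name, so its expression was not analysed here.

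RNA from the rat induced pluripotent stem (iPS) line M13 was set against RNA of adult rat cells, named mix1. iPS cells are adult cells returned to an embryonic state, and the factors used to make M13 are not given in the sources used here. They were kept untreated on irradiated mouse embryonic fibroblast feeders, and any feeder RNA that hybridised to rat probes was not measured. mix1 joined bone marrow cells and primary ear fibroblasts, both cultured without mention of feeders, in proportions that are not stated. Strain and age are not given either. On each of 3 dual-channel arrays the Cy3 dye marked iPS M13 and the Cy5 dye mix1. M13 is a single line and mix1 a single RNA. Whether the 3 iPS RNAs came from separate cultures is not stated, so the p-values reflect only the variation among these arrays, which may be technical. Between 53.4% and 60.7% of probes were well above background in Cy3, and between 52.3% and 60.9% in Cy5. The dyes were never swapped, so dye and cell type cannot be told apart.

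Polyamines are small positively charged molecules that bind nucleic acids and are needed for cell growth. Ornithine decarboxylase (Odc1) makes putrescine, S-adenosylmethionine decarboxylase (Amd1) supplies the aminopropyl groups, and spermidine synthase (Srm) and spermine synthase (Sms) add them in turn. Antizymes (Oaz1, Oaz2) bind ornithine decarboxylase and send it to the proteasome, the antizyme inhibitor Azin1 takes antizyme away from it, and the acetyltransferase Sat1 starts the export and back-conversion of spermidine and spermine. Odc1 is a textbook target of the transcription factor MYC, and Srm is often listed as one.

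In iPS M13 the synthesis genes Sms (4.06-fold), Amd1 (3.21-fold) and Odc1 (3.1-fold) were higher than in mix1, and the catabolic gene Sat1 was 11.4-fold lower. Srm, Oaz1 and Azin1 did not reach a 2-fold difference. In bulk RNA, fewer cells that express a gene and less of its RNA in each cell cannot be told apart. A gene was called at a Benjamini-Hochberg adjusted p under 0.05 in limma together with a difference of at least 2-fold. By that rule 3 of the 7 genes were called higher, against 18.8% of all 20321 genes tested, and 1 was called lower, against 25.4%. Their median log2 ratio was 0.53, beside -0.02 for all genes. That median is the value of the brighter Azin1 probe. With the probes of each gene averaged it was 0.20, and under median centring 1.34 beside 0.58 for all genes. The adjusted p alone was passed by 96.1% of all genes, so the minimum fold decided nearly every call. Spot signals are given below as they were before normalization. Over all probe spots the median signal on arrays 1, 2 and 3 was higher in Cy3 (272, 291 and 289) than in Cy5 (228, 254 and 235). How many of all probes had signals that did not overlap between the RNAs was not counted. Signals that did not overlap are therefore given as a description only. The plot of log2 ratios by array shows the 10 probes.

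**Figure D1:**
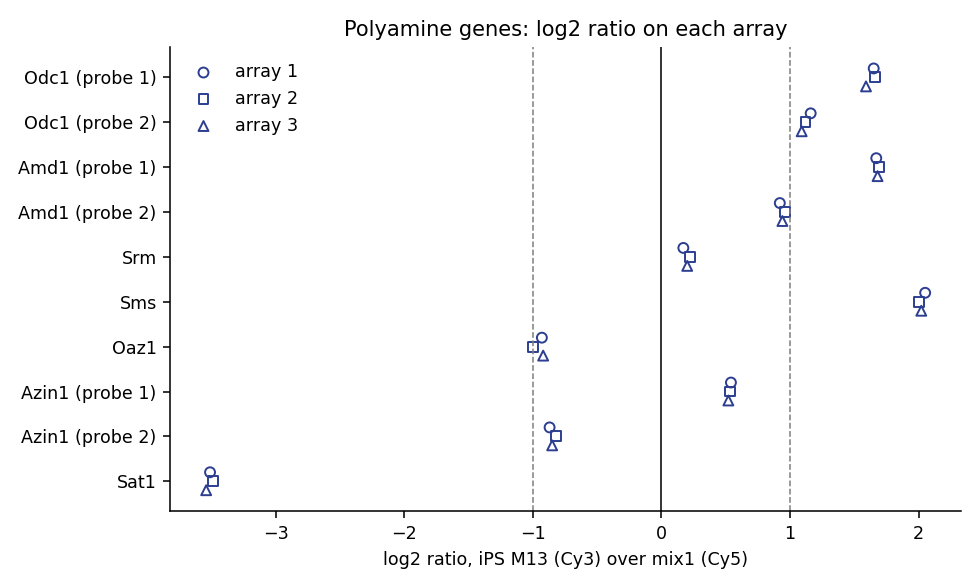
Log2 ratio of iPS M13 over mix1 (horizontal axis) for each probe of the 7 polyamine genes, with a symbol for each of the 3 arrays; probe 1 is the brighter probe of a gene and dashed lines mark a 2-fold difference. The 3 arrays lie close together for every probe, Sat1 stands at -3.51 and Sms at 2.02, and the Azin1 probes lie on opposite sides of 0.

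Odc1, the first enzyme of the pathway, had mean spot signals of 62451, 67403 and 58116 in iPS M13 on arrays 1, 2 and 3 for its brighter probe. In mix1 the same probe gave 13038, 15271 and 12105. Every iPS M13 signal was above every mix1 signal. After normalization the log2 ratios, iPS M13 over mix1 here and throughout, were 1.65, 1.66 and 1.59, with a mean of 1.63 ± 0.04 (SD, n = 3; limma adjusted p = 2.80e-06). The brighter probe lies on chromosome 6 from 41316638 to 41316697 in build rn3, the build of the array design, and the sequence that caught the Odc1 message was:

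Odc1: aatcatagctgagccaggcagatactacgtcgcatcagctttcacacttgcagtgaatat

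The second Odc1 probe starts 1846 bases further along chromosome 6, at 41318484. It gave 1.16, 1.12 and 1.09, a mean of 1.12 ± 0.04 (SD, n = 3), and was called higher too. The probes thus differed by 0.51 ± 0.03 on the log2 scale, more than the spread between arrays, and the fold for Odc1 runs from 2.18 to 3.1 with the probe chosen. Among probes rather than genes, 18.5% of 24149 were called higher and 25.1% lower.

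Amd1, whose enzyme makes decarboxylated S-adenosylmethionine, had signals of 60732, 65877 and 63287 in iPS M13 and 12387, 14563 and 12527 in mix1 for its brighter probe on chromosome 20 (44475579 to 44475638). The groups did not overlap. The log2 ratios were 1.67, 1.69 and 1.68, a mean of 1.68 ± 0.01 (SD, n = 3; limma adjusted p = 1.28e-06). Its second probe, from 44476865 to 44476924, stood at 0.94 ± 0.02 (SD, n = 3) and fell short of 2-fold, which it passed with the processed signals (1.18). Both Amd1 probes were above 0 on 3 of 3 arrays, and they differed by 0.74 ± 0.01. Averaged over both probes Amd1 kept its call, at 1.31.

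Srm, which turns putrescine into spermidine, had the lowest ratio of the synthesis genes and was the only one of them not called. Its signals were 41139, 43903 and 41280 in iPS M13 and 24190, 27426 and 23154 in mix1, from a probe on chromosome 5 (165685614 to 165685673). These signals did not overlap either, though Srm was not called. The log2 ratios after normalization were 0.17, 0.22 and 0.20, a mean of 0.20 ± 0.02 (SD, n = 3; limma adjusted p = 5.44e-04), or 1.15-fold. How far Srm was above 0 depended on the scaling: the ratio was 0.82 under median centring and 0.81 once the trend with probe GC content was taken off, and it stayed below 2-fold in both. On every array Srm lay below the brighter Amd1 probe, by 1.48 ± 0.01, and below Sms, by 1.83 ± 0.05 (SD, n = 3). These pairs were chosen after their values were seen. Over 7 other ways of processing the same probes these gaps ran from 0.99 to 1.51 and from 0.91 to 2.22. The second probes of Amd1 (0.94) and Odc1 (1.12) lay nearer to Srm. With the GC trend taken off they were at 1.06 and 1.24, beside 0.81 for Srm, so the size of the gap depended on the probe.

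Sms, which adds the last aminopropyl group to make spermine, had the highest ratio of the 7 genes. Its signals were 4928, 5548 and 4831 in iPS M13 and 676, 802 and 650 in mix1. The groups did not overlap, and the mix1 signals were well above background on all 3 arrays. The log2 ratios were 2.05, 2.0 and 2.02, a mean of 2.02 ± 0.03 (SD, n = 3; limma adjusted p = 1.42e-06). The Sms probe covers 772 bases of chromosome X (58899276 to 58900047) with 60 bases of sequence, so its letters are not contiguous in the genome. A second probe, listed under the predicted name RGD1559938 and described as similar to spermine synthase, starts 10 bases before it and shares 50 of its bases, shown here in capitals:

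Sms: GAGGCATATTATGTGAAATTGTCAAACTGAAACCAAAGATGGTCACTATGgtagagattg
RGD1559938: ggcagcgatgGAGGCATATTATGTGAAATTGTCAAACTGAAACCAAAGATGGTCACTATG

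This overlapping probe, which covers an unbroken stretch of chromosome X from 58899266 to 58899325, gave log2 ratios of 2.62, 2.57 and 2.63. It was called higher as well (mean 2.60 ± 0.03, SD, n = 3). It lay above the Sms probe by 0.58 ± 0.02 on the 3 arrays. It was not one of the 10 probes found by name.

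**Figure D2:**
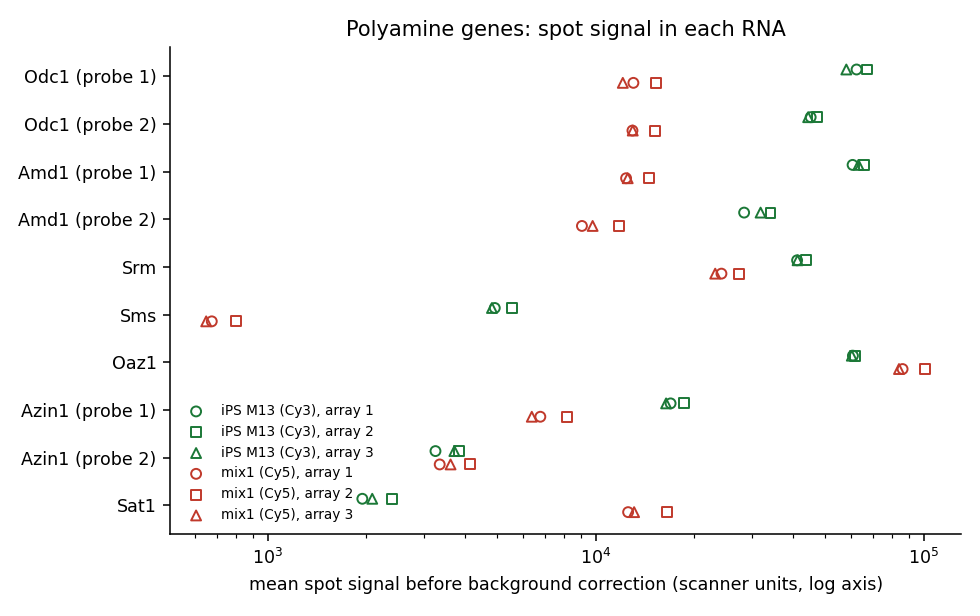
Mean spot signal before background correction (horizontal log axis, scanner units) of each probe in iPS M13 (green, Cy3) and mix1 (red, Cy5) on the 3 arrays. The colours are well apart for Odc1, Amd1, Sms and Sat1 and meet for the fainter Azin1 probe; signals of different probes are not comparable in level.

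Sat1, the acetyltransferase that marks spermidine and spermine for export or back-conversion, differed most. Its signals were 1945, 2389 and 2085 in iPS M13 and 12564, 16506 and 13105 in mix1. The highest iPS M13 signal was far under the lowest mix1 signal. The log2 ratios were -3.51, -3.49 and -3.54, a mean of -3.51 ± 0.03 (SD, n = 3; limma adjusted p = 6.66e-07). Its probe takes 60 bases from a stretch of 379 on chromosome X (61690823 to 61691201), and its sequence shows what the lowest ratio of the 7 genes rests on:

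Sat1: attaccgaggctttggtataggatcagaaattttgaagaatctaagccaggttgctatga

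Between Sms and Sat1 the log2 ratios were 5.54 ± 0.05 apart (SD, n = 3), and between the brighter Odc1 probe and Sat1 5.15 ± 0.01. Over the same 7 other ways these gaps stayed between 5.47 and 5.75 and between 4.94 and 5.50. With 3 arrays an exact sign-flip test of such a gap cannot go below p = 0.25, so none was used.

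Oaz1, the antizyme that directs ornithine decarboxylase to degradation, was lower in iPS M13 but not by 2-fold. Its signals were 60872, 61760 and 60403 in iPS M13 and 86267, 101070 and 84111 in mix1, and the groups did not overlap. The log2 ratios were -0.93, -1.0 and -0.92, a mean of -0.95 ± 0.04 (SD, n = 3; limma adjusted p = 1.42e-05). The size of this difference depended on the processing: it was -0.58 with the scanner software's processed signals, -0.51 under median centring and -0.34 with the GC trend removed, negative each time. Over all kept probes the log2 ratio changed by -0.44 for each 10 percentage points of GC content. The Oaz1 probe is richer in G and C (55.0%) than those of Sms (36.7%) and Sat1 (38.3%), takes its 60 bases from 137 on chromosome 7 (10395014 to 10395150), and read:

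Oaz1: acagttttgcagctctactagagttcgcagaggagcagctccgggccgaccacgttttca

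The brighter Odc1 probe lay above the antizyme Oaz1 by 2.58 ± 0.07 on the log2 scale (SD, n = 3). Under the same 7 other ways this gap was 2.09 to 2.78. The second Odc1 probe (1.12) lay nearer to Oaz1, and with the GC trend taken off these were at 1.24 and -0.34. Transcript ratios do not measure antizyme protein, whose synthesis needs a ribosomal frameshift.

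For Azin1, the inhibitor of antizyme, the result depended on the probe. The brighter probe, on chromosome 7 from 74179911 to 74179970, had signals of 16929, 18567 and 16403 in iPS M13 and 6785, 8158 and 6390 in mix1. Before normalization these signals did not overlap, though the probe was not called. The log2 ratios of this probe were 0.54, 0.53 and 0.52, a mean of 0.53 ± 0.01 (SD, n = 3; limma adjusted p = 1.77e-05). The other probe starts 3924 bases away, at 74183835, and gave -0.87, -0.82 and -0.85, a mean of -0.84 ± 0.02. The probes differed by 1.37 ± 0.03 on all 3 arrays, neither reached 2-fold, and their average was -0.16. Under median centring the brighter probe stood at 1.34 and was called higher while the other was at 0.01, so no direction can be given for Azin1 as a gene.

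Array probes for further sequences described as similar to these genes, not counted as members and chosen by their descriptions after the data were examined, moved as follows. A sequence similar to ornithine decarboxylase (LOC690517) stood at 2.31 ± 0.01, and one similar to S-adenosylmethionine decarboxylase on chromosome X at 2.09 ± 0.01 (SD, n = 3). Both were called higher, as Odc1 and Amd1 were. One similar to spermidine synthase on chromosome 3 was at 0.16 ± 0.03, near Srm. One similar to antizyme 2 (LOC690789) was called lower, at -1.57 ± 0.04. Probes of near-identical copies can bind the message of the gene itself, and which message each bound was not tested. The 3 other such probes, similar to ornithine decarboxylase (LOC685312 and RGD1562036) or to diamine acetyltransferase 1 (RGD1565932), were not well above background on all arrays in either RNA.

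The other genes of the pathway were followed in a list of 40, from arginine and ornithine supply to the use of spermidine. Of these, 31 were measured, 5 were called higher (16.1%, beside 18.8% of all genes) and 8 lower (25.8%, beside 25.4%), with a median of -0.04. These shares were close to those of all genes. The balance depended on the scaling, since median centring called 13 higher and 4 lower, against 36.4% and 17.8% of all genes.

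On the supply side, the arginine transporter Slc7a1 was at 2.32 ± 0.01 (SD, n = 3), with a second probe at 0.61. The arginine-making enzyme Ass1 was at 1.14 ± 0.15, with mix1 measured on 2 of 3 arrays. Both were called higher. Arg1, the arginase that releases ornithine, was lower at -5.15 ± 0.04, while the mitochondrial arginase Arg2 was at -0.29 ± 0.06 and not called. The ornithine aminotransferase Oat (-1.09 ± 0.01) was called lower, but fell short of 2-fold with the processed signals or the authors' deposited matrix (-0.90), under median centring (-0.59) and without within-array normalization (-0.65). The agmatinase Agmat was at least 2.22-fold lower, since its iPS M13 signal did not clear background on any array. Of the 9 measured supply genes 2 (22.2%) were called higher and 3 (33.3%) lower, beside 18.8% and 25.4% of all genes.

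On the methionine side, 1 of 9 measured genes (11.1%, beside 18.8% of all genes) was called higher and 0 lower in limma, where 2 were below 0 at an unadjusted p under 0.05. The gene called higher was Ahcy (1.26 ± 0.00, SD, n = 3), which clears S-adenosylhomocysteine. Mat2a, which makes S-adenosylmethionine, was at 0.19 ± 0.00, and Mtap, which salvages the by-product of Srm and Sms, at 0.70 ± 0.02. Neither reached 2-fold.

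The genes listed for oxidation and acetylation besides Sat1 did not share a direction. Sat2, related to Sat1 by sequence, was called lower at -5.40 ± 0.07 (SD, n = 3). What its enzyme acts on was not examined here. The spermine oxidase Smox was at -0.68 ± 0.00 and the polyamine oxidase Paox at 0.68 ± 0.02, and neither was called. Among further regulators, the antizyme inhibitor Azin2 was called lower at -1.26 ± 0.45, with iPS M13 measured on 1 of 3 arrays. It no longer reached 2-fold under median centring (-0.87), without within-array normalization (-0.93) or with the GC trend taken off (-0.64). On array 2 its log2 ratio was -0.75, against -1.40 and -1.62 on the others.

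Among transport genes, 1 of 6 measured (16.7%, beside 18.8% of all genes) was called higher, Slc12a8 at 1.92 ± 0.09 (SD, n = 3), and 3 (50%, beside 25.4%) lower. The lower ones were caveolin Cav1 (-6.99 ± 0.04), the amino acid transporter subunit Slc3a2 (-1.17 ± 0.02) and the lysosomal polyamine exporter Atp13a2 (-1.05 ± 0.03). Slc3a2 fell below 2-fold under median centring (-0.51) and without within-array normalization (-0.57). Atp13a2 did so under these (-0.34 and -0.40), with the processed signals or the deposited matrix (-0.78) and with the GC trend taken off (-0.44). Spermidine also supplies the hypusine residue of the translation factor eIF5A. There Eif5a2 was higher at 2.43 ± 0.15, with mix1 measured on 2 of 3 arrays, while Eif5a (-0.20 ± 0.02) and the hypusine-forming enzyme Dhps (0.47 ± 0.02) were not called.

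**Figure D3:**
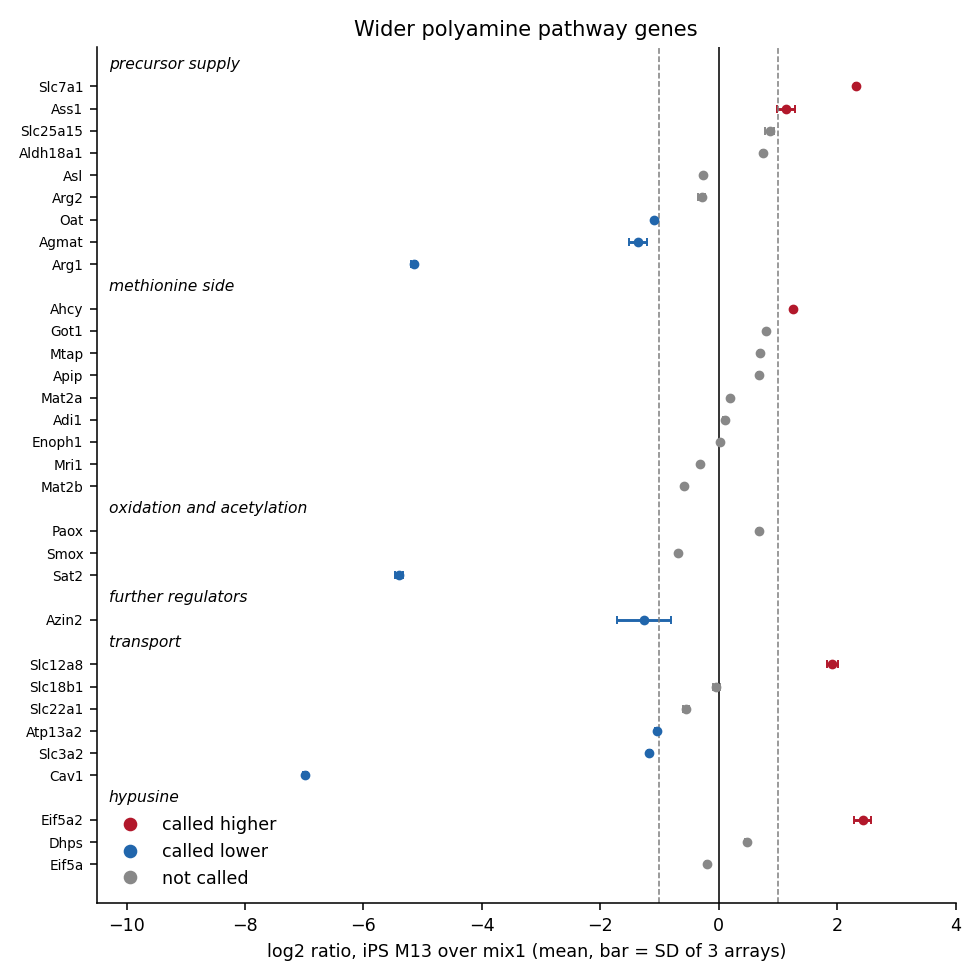
Mean log2 ratio, iPS M13 over mix1 (horizontal axis; bars are the SD of 3 arrays) for the 31 measured genes of the wider polyamine pathway, by step, coloured by call. Cav1, Sat2 and Arg1 lie furthest left, Eif5a2 and Slc7a1 furthest right, and 18 genes were not called; Agmat, dim in iPS M13 on all arrays, is drawn at its measured value.

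The comparison with MYC targets began with MYC itself. Myc had log2 ratios of -5.69, -5.69 and -5.74, a mean of -5.71 ± 0.03 (SD, n = 3; limma adjusted p = 6.18e-07), 52.2-fold lower in iPS M13 than in mix1. Its relative Mycn was at 0.73 ± 0.04 from the brighter probe and 1.31 from another, and it passed 2-fold under several settings, such as the processed signals (1.32). The common partner Max was at -0.78 ± 0.01. Mycl and Mxd1 were too dim to measure, and Mga had no probe under its name. The antagonists Mxd3 (-1.25 ± 0.02) and Mxd4 (-1.07 ± 0.00) were called lower. Both fell below 2-fold under median centring (-0.57 and -0.24) and without within-array normalization (-0.62 and -0.30). They did so with the GC trend taken off (-0.64 and -0.57), and Mxd4 with the processed signals or the deposited matrix (-0.72). Mnt (-0.34 ± 0.05), Mxi1 (-0.06 ± 0.05) and Mlx (-0.72 ± 0.01) missed 2-fold, and median centring turned their sign. With the GC trend taken off Mlx was called lower, at -1.02.

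Textbook MYC targets other than the polyamine genes were mostly higher in iPS M13. Of 36 measured, 23 (63.9%, beside 18.8% of all genes) were called higher and 0 lower in limma, with a median of 1.20, and 3 were below 0 at an unadjusted p under 0.05. At the top were the purine enzyme Ppat (2.26 ± 0.00, SD, n = 3), the nucleolar protein gene Mybbp1a (1.91 ± 0.04), the transferrin receptor Tfrc (1.89 ± 0.02) and the nucleolar GTPase gene Gnl3 (1.72 ± 0.08). At the bottom were the cyclin Ccnd2 (-0.64 ± 0.02), the telomerase gene Tert (-0.41 ± 0.07), E2f1 (-0.26 ± 0.01) and Nme1 (-0.01 ± 0.01). None of them was called, and the sign of each turned under at least 1 other setting. A second kept Tert probe stood at 0.28. Odc1, Amd1 and Sms had ratios within the range of this list. Srm and the brighter Azin1 probe (0.53) were within it but below its median. Sat1 and Oaz1 (-0.95) were lower than all 36.

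Genes that MYC is known to repress were nearly all lower. Of 12 measured, 11 (91.7%, beside 25.4% of all genes) were called lower and 0 higher in limma, with a median of -3.22, and 1 was above 0 at an unadjusted p under 0.05. The growth arrest gene Gas1 was at -10.02 ± 0.10 (SD, n = 3), with iPS M13 measured on 2 of 3 arrays, and Pdgfrb at -7.22 ± 0.03. Thbs1 was at least 40.3-fold lower, since its iPS M13 signal did not clear background on any array. Gas1 and Thbs1 were thus kept only through their mix1 signals. Ndrg2 was at -2.0 ± 0.02, and Ndrg1, at 0.41 ± 0.02, was not called. Ndrg1 was called higher under median centring (1.26) and without within-array normalization (1.20). Pdgfrb is also a fibroblast marker. The strip plot of these lists sets the polyamine genes beside them.

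**Figure D4:**
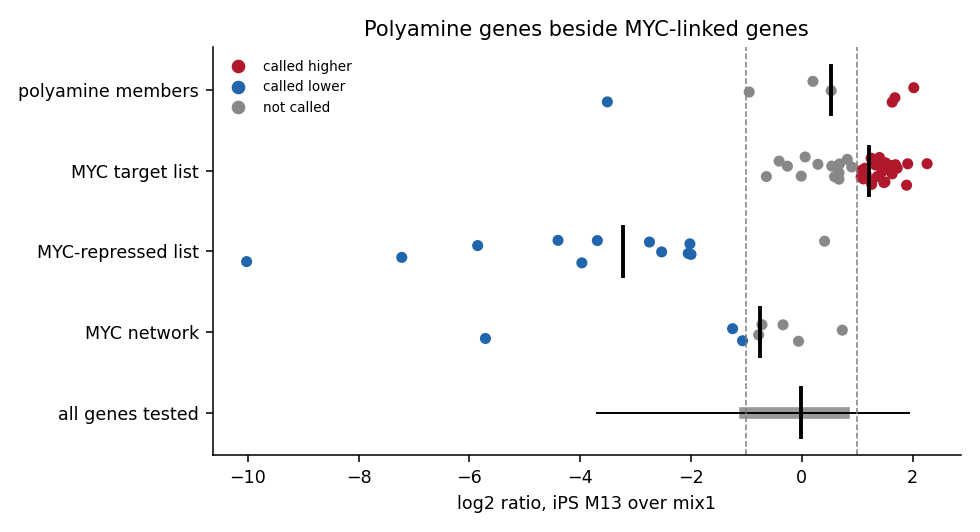
Log2 ratio of iPS M13 over mix1 (horizontal axis) for each measured gene of the polyamine list, the MYC target list, the MYC-repressed list and the MYC network, coloured by call, with black bars at list medians; the bottom line spans the 5th to 95th percentile of all genes tested, from -3.70 to 1.93, with a grey bar for the middle quartiles. The 23 MYC targets called higher lie at the right, with Odc1, Amd1 and Sms among their range. Sat1, at -3.51, lies within the range of the MYC-repressed list and also on the line for all genes. Whether MYC acts on it was not tested.

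MYC binds the letters CACGTG, an E-box that reads alike on both strands. It was searched in the 250 bases before the transcript start of each gene in RefSeq's promoter table (build GRCr8). Of 33469 promoters 5.59% held it. Among the polyamine genes 7, Oaz2 included, had an entry and 2, Srm and Oaz1, held 1 E-box each. Azin1 was not matched. These promoters are shown because they carry the motif (capitals) while the ratios of their genes lie on opposite sides of 0. The Srm stretch is chr5:164308752-164309001 on the plus strand, with the motif starting 173 bases before the transcript, and the Oaz1 stretch is chr7:9536991-9537240 on the minus strand, with the motif 234 bases before it.

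Srm: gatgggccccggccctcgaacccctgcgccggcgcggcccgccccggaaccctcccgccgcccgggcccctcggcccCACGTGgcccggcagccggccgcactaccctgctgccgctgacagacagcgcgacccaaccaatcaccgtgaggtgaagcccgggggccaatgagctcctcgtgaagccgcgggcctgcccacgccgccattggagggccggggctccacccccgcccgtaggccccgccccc
Oaz1: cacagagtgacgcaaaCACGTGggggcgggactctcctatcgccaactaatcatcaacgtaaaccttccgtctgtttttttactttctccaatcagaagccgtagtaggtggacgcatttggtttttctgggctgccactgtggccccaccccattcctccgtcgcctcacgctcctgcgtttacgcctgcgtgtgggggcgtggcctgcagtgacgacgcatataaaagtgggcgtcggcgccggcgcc

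The polyamine genes called higher, Odc1, Amd1 and Sms, held no CACGTG in this window. Well-known E-boxes of Odc1 lie in its first intron, outside it. Of 34 MYC targets with an entry 9 (26.5%) held the motif. Among measured targets, 6 of 9 with it and 16 of 24 without it were called higher. A match in this window is a description of letters, and it says nothing of binding in these cells.

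Markers of the adult cells differed together with these genes. All 10 fibroblast markers and all 8 measured macrophage and marrow markers were called lower in iPS M13 (100% of each list, beside 25.4% of all genes). The medians were -7.41 and -5.70. Postn and Thy1 of the first list and Ptprc and Ctss of the second were not well above background in iPS M13 on any array, while the other markers named there were above it on all 3. Summed over the list, background-subtracted fibroblast marker signals ran from 18076 to 19449 in iPS M13 and from 1479356 to 1627024 in mix1. Macrophage and marrow markers summed to 4303 to 4683 against 182407 to 213814. Of 6 measured pluripotent markers 5 (83.3%, beside 18.8% of all genes) were called higher. Lin28a, at -0.15 ± 0.04 (SD, n = 3), was not called. Pou5f1 and Epcam were kept only through their iPS M13 signals. For Pou5f1 mix1 did not clear background on any array, and for Epcam it did so on 2 of 3. Nanog, Zfp42, Tdgf1, Sall4 and Utf1 had no probe under their names. The pluripotent sums were 30661 to 33482 in iPS M13 and 1348 to 1454 in mix1. The part of this difference in cell type in the ratios of Sat1, Arg1, Cav1, Oaz1 and Myc was not tested.

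Across all genes 3816 were called higher and 5162 lower, so that 42.5% of calls were higher. This split was 67.2% under median centring (7402 higher, 3608 lower), 65.1% without within-array normalization (7002 and 3747) and 56.6% with the processed signals or the authors' deposited matrix (6312 and 4835), as the median of all genes moved up by 0.60, 0.55 and 0.31. Relative to those shifts, Odc1, Amd1 and Sms stayed above and Sat1 below all genes' median. The plot of other processing shows each polyamine gene under the settings tried.

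**Figure D5:**
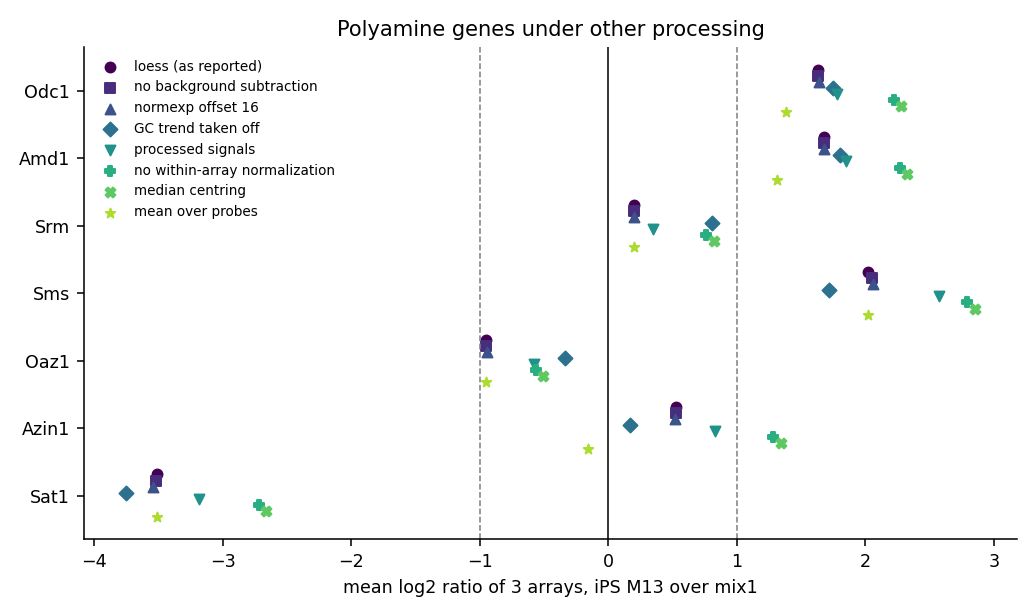
Mean log2 ratio, iPS M13 over mix1, (horizontal axis) of the 7 polyamine genes under loess, under 6 other ways of processing the brighter probe and with each gene's probes averaged, with dashed lines at 2-fold. Odc1, Amd1 and Sms lie right of the upper line and Sat1 left of the lower line in each, Srm and Oaz1 stay between the lines, and Azin1 passes the upper line in 2 settings and lies below 0 (-0.16) with averaged probes.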

How the data were processed

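The deposited values were spot intensities of 3 arrays read with Agilent Feature Extraction (9.5.3.1), per the file headers, as mean spot signal and median local background with nothing subtracted. The same files held processed intensities, which that software had detrended and corrected for dye, and log10 ratios of Cy5 over Cy3, per the file headers. The authors also deposited a matrix of values, which held log2 ratios of unstated direction and centring. Against the log10 ratios its columns had slopes of -3.322, -3.321 and -3.321 and medians of -0.0414, -0.0282 and -0.0286, so it was read as Cy3 over Cy5. Whether it was centred is not stated. For the polyamine genes its ratios equalled those of the processed signals, and the median of all genes tested was 0.29 in both. Lines that ran 2 spots together (2 on replicate 2, 1 on replicate 3) were split.

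Signals were corrected by normexp (offset 50) and normalized by loess within arrays, giving control spots a weight of 0, with limma 3.58.1 (R 4.3.3; the data.table package was version 1.17.8). Outlier spots (205, 263 and 192) were left out. The 24149 probes well above background in 1 channel on all 3 arrays were kept, and the brightest stood for each gene. The mean log2 ratio was tested against 0 with lmFit and eBayes, adjusted by Benjamini-Hochberg over 20321 genes. Since mix1 is 1 RNA, the test leaves out the spread of mix1, and the number of arrays limits the precision. The fit was tested on simulated data. A bound ("at least") divides the bright RNA by the dim one, set at no less than the lowest signal well above background. Gene names were updated through RefSeq genes of build GRCr8, which named 10735 of 41012 probes from their accession and 48 from another listed accession. Symbols named 5577, synonyms 3730 and gene IDs 1217, and 19705 probes kept the file's name.

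The genes and lists were chosen with earlier results of these data known. Named were the polyamine genes and the MYC network genes, every called gene of the wider pathway list (at most 14), the 4 highest and 4 lowest MYC targets and the 2 highest and 2 lowest repressed genes. Arg2, Mat2a, Mtap, Smox, Paox, Eif5a, Dhps, Thbs1, the markers and the similar sequences were named after their values were seen. Alternatives covered background, normalization, the processed signals, the deposited matrix, the probe filter, averaged probes, probe GC content and leaving out each array. Python 3.11.15, pandas 2.3.3, numpy 2.4.6 and matplotlib 3.10.9 were used.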

Additional observations from a re-analysis of the deposited data

How the results depend on the processing

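Across 13 alternatives, Odc1 (1.38 to 2.28), Amd1 (1.31 to 2.32), Sms (1.72 to 2.85) and Sat1 (-3.75 to -2.66) kept direction and call. Srm and Oaz1 were never called. Not all 13 are separate checks. For these genes, changing the probe filter left the ratios as they were, and the deposited matrix repeated those of the processed signals. The count of polyamine genes called higher was 3, or 4 under median centring and without within-array normalization, and 1 was called lower each time. Of 40 named genes, 24 kept direction and call in every alternative that measured them. Of wider pathway genes, 13 were called higher under median centring, 12 without within-array normalization, 9 with the processed signals, 9 with the deposited matrix and 3 with both channels above background. Lower calls were 4 under median centring and 4 without within-array normalization. Genes called higher overall numbered 7402, 7002, 6312 and 6312 in the first 4 of these settings. Leaving out 1 array moved none of these counts by over 1.5 times. Averaging probes put Azin1 at -0.16. Signs turned under median centring for Ccnd2 (0.20), E2f1 (0.57), Nme1 (0.38), Mxi1 (0.46), Mnt (0.02) and Mlx (0.13), and without within-array normalization for Ccnd2 (0.14), E2f1 (0.51), Nme1 (0.32), Mxi1 (0.41) and Mlx (0.07). With the processed signals, as with the deposited matrix, they turned for E2f1 (0.06), Nme1 (0.28) and Mxi1 (0.25), and with the GC trend taken off for Tert (0.20), Nme1 (0.54), Mxi1 (0.55) and Mnt (0.32). The cause was not tested. No paired analysis was possible because all samples form 1 group. Low signal limits Azin2, Agmat, Ass1, Eif5a2, Gas1 and Thbs1, each dim in 1 RNA, and the markers described above as not clearing background.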
